A study of Mus musculus with 18 samples.

Results

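The comparison described here set neurons lacking Hmgn1 against neurons with the gene intact, both differentiated in culture from mouse embryonic stem (ES) cells. All 6 arrays titled as neurons were taken, 3 of genotype Hmgn1-/- and 3 of genotype Hmgn1+/+, out of 18 arrays in the series. The other 12 hold the ES cells and neural progenitors of the same genotypes, again with 3 arrays per group. All 6 groups carry the strain label C57/B6 and received no other treatment in the labels. The stem cells were grown in serum replacement with LIF, a cytokine that maintains pluripotency, either on mitomycin-c treated mouse primary embryonic fibroblasts or without feeders, and the labels do not say which arrays came from which culture. Neurons were made with a commercial kit for mouse dopaminergic neurons. The labels name neither the stem cell lines nor the number of clones behind each genotype, and they call the replicates biological without saying that they were separate differentiations, so p-values here measure the spread between these arrays. RNA from whole cultures was hybridised to Affymetrix 3' expression arrays carrying 45101 probe sets. Of these, 34945 had 1 gene symbol, 26311 of them passed a filter on low values, and the brightest probe set of each gene gave 14432 genes to test.

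HMGN1 is a small protein of the high mobility group nucleosome-binding family. It binds nucleosome core particles in chromatin, where it competes with linker histone H1 and loosens the packing of nucleosomes, and it is found across open chromatin rather than at single target genes. Ventral midbrain dopamine neurons arise from floor plate progenitors that need the secreted signal Sonic hedgehog and the transcription factors FOXA1, FOXA2 and LMX1B, and they go on to express the enzymes and transporters of dopamine metabolism. Serotonin neurons arise just behind them in the hindbrain under the same ventral signals.

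The arrays were closely alike within groups. Pearson's r between neuron arrays, across genes, was 0.996 to 0.997 within a genotype and 0.990 to 0.993 between genotypes, and no pair of arrays held identical values. Intensities are linear brightness values, and 37.5, the mean over arrays of the 40th percentile, served as the background bound. All 10 neuron markers lay above it, among them the neuronal tubulin Tubb3, the microtubule protein Map2 and the synaptic protein Snap25, with a summed intensity of 36205 to 40323 on the +/+ arrays and 34693 to 35958 on the -/- arrays. The cultures also held signal of other cell types. All 6 fibroblast markers were above the bound, with a sum of 15239 to 17694 on the +/+ arrays and 25309 to 29596 on the -/- arrays. All 6 neural progenitor markers were present too, with sums of 20632 to 20691 and 20856 to 21217. The pluripotency factors Pou5f1, Nanog and Zfp42, the endothelial gene Pecam1 and the microglial gene Cx3cr1 lay below the bound in both genotypes. The other tested markers of these types did not, so that 1 of 4 pluripotency, 2 of 3 endothelial and 1 of 2 microglial markers were above it in +/+ neurons. In such whole-culture RNA, fewer cells of a type and less RNA per cell cannot be told apart.

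The targeted gene was measured first. Hmgn1 signal was lower in -/- neurons on each of 3 bright probe sets, by 0.44 ± 0.05, 0.32 ± 0.05 and 0.54 ± 0.05 on the log2 scale (limma, difference ± standard error, adjusted p = 1.4e-05, 0.00038 and 7.0e-06 over all probe sets). The probe set used for the gene read 8735, 9178 and 9259 on the +/+ arrays and 7313, 7119 and 7284 on the -/- arrays. The -/- arrays therefore lay below all +/+ arrays and still held most of the signal. No source used here says which exons were deleted. A probe set outside the deletion checks nothing, so these values show a lower transcript signal on the arrays labelled -/- and not the loss of the protein. Another Hmgn1 probe set was below the background bound in both genotypes and was not tested.

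In neurons, 858 of 14432 genes rose without Hmgn1 (5.95%) and 1049 fell (7.27%), at an adjusted p under 0.05 in limma with Benjamini-Hochberg adjustment over all tested genes. Counted over all 26311 probe sets with 1 symbol, 9.33% were called, 4.34% higher and 4.99% lower. An unadjusted p under 0.05 in limma, given below for some lists, was reached by 3817 of the 14432 genes in either direction. Most differences were small. 236 genes rose and 175 fell by at least 1.5-fold, 64 rose and 31 fell by at least 2-fold, and the median over all genes was -0.02 on the log2 scale. The 3 arrays of one genotype lay wholly above or below those of the other for 4543 genes (31.5%), with -/- above for 13.1% and below for 18.4%. The count of falls dropped whichever neuron array was left out, to between 655 (without -/- replicate 2) and 962 (without +/+ replicate 2). With the 6 neuron arrays fitted alone 661 rose and 630 fell.

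**Figure D1:**
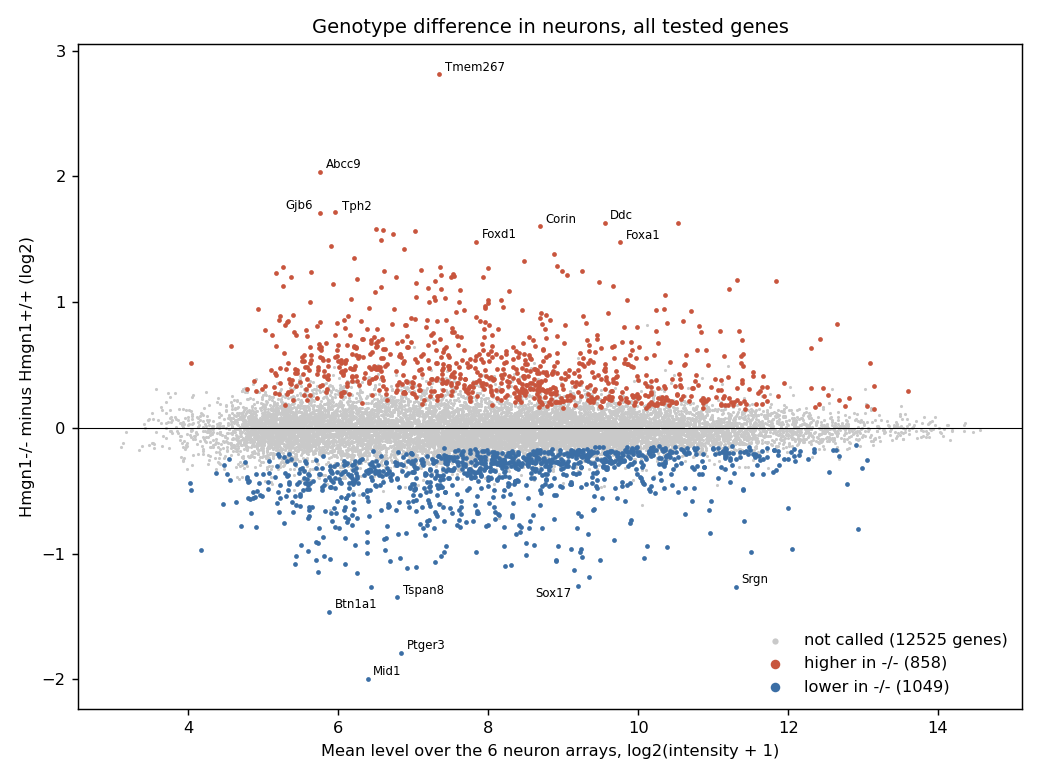
Log2 difference between -/- and +/+ neurons (vertical axis) against the mean level over the 6 neuron arrays as log2(intensity + 1) (horizontal axis), 1 point per tested gene, with the 858 genes that rose in red and the 1049 that fell in blue. Tmem267 stands alone at the top and Mid1 and Ptger3 at the bottom, while most called genes lie within 1 log2 unit of 0.

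The largest rise was that of Tmem267, a transmembrane protein gene, which read 64.1, 52.4 and 65.9 on the +/+ arrays and 425, 417 and 452 on the -/- arrays (7.03-fold, log2 difference 2.81 ± 0.13, adjusted p = 2.5e-09). No array of one genotype came near the range of the other. Its difference was of similar size in ES cells (2.70 ± 0.13, adjusted p = 3.5e-09) and in progenitors (3.23 ± 0.13, adjusted p = 1.5e-10), and the difference between neurons and progenitors did not pass (adjusted p = 0.19). Abcc9, which encodes the SUR2 subunit of ATP-sensitive potassium channels, read 30.1, 25.2 and 22.4 on the +/+ arrays and 108, 116 and 102 on the -/- arrays. The +/+ arrays were all under the background bound, so the rise is given as at least 2.87-fold (log2 difference 2.04 ± 0.12, adjusted p = 1.4e-08). With no filter on low values a different Abcc9 probe set was the brightest and gave 0.32. Gjb6, the astroglial gap junction protein connexin 30, likewise started under the bound, at 26.4, 30.7 and 29.5 on the +/+ arrays and 96.0, 98.2 and 95.4 on the -/- arrays (at least 2.56-fold, log2 difference 1.71 ± 0.07, adjusted p = 1.3e-09).

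Several of the other large rises were genes of secreted or surface proteins. Ccn3, a secreted matricellular protein, read 68.7, 43.7 and 55.4 on the +/+ arrays and 161, 157 and 179.7 on the -/- arrays (log2 difference 1.57 ± 0.15, adjusted p = 3.8e-06). The scavenger receptor gene Cd36 read 86.4, 56.0 and 85.8 on the +/+ arrays and 176, 269.7 and 235 on the -/- arrays (log2 difference 1.57 ± 0.20, adjusted p = 5.0e-05), and the leptin receptor gene Lepr read 52.7, 42.9 and 60.8 on the +/+ arrays and 95.5, 239 and 167 on the -/- arrays (log2 difference 1.58 ± 0.26, adjusted p = 0.00052). All of their -/- arrays lay above all +/+ arrays, which the rule for picking the 15 largest rises required of each gene. The -/- arrays of Lepr spread over more than the whole +/+ range. Bmp5, a bone morphogenetic protein ligand, had a log2 difference of 1.45 ± 0.15, the immunoglobulin-family surface protein gene Cd83 one of 1.43 ± 0.07, and the forkhead factor gene Foxd1 one of 1.48 ± 0.20 (adjusted p = 6.7e-06, 2.5e-09 and 8.5e-05). The rest of the 15 largest rises, namely Tph2, Ddc, Corin, Aldh1a1, Slc6a4 and Foxa1, belong to the monoamine neuron lists and are described with them.

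The largest fall was in Mid1, an X-linked ubiquitin ligase gene, which read 211, 144 and 152 on the +/+ arrays and 33.0, 51.2 and 40.8 on the -/- arrays (3.98-fold lower, log2 difference -1.99 ± 0.17, adjusted p = 1.1e-06), with -/- replicate 1 under the bound. It was lower by a similar amount in ES cells (-2.22 ± 0.17) and progenitors (-1.54 ± 0.17), with adjusted p = 8.4e-07 and 7.4e-06. Ptger3, a prostaglandin E2 receptor gene, read 207, 189.7 and 243 on the +/+ arrays and 60.4, 57.7 and 64.1 on the -/- arrays (log2 difference -1.79 ± 0.14, adjusted p = 3.6e-07). Serglycin (Srgn), the core protein of intracellular proteoglycans, read 3668, 3900.3 and 4189.6 on the +/+ arrays and 1770.4, 1419 and 1722 on the -/- arrays (log2 difference -1.26 ± 0.19, adjusted p = 0.00029). For all 3 genes the -/- arrays lay wholly below the +/+ arrays. Fbxo15, an F-box gene expressed in undifferentiated stem cells, fell by 1.27 on the log2 scale, and Trap1a, an X-linked tumour rejection antigen gene, fell by 1.13 (adjusted p = 7.1e-09 and 3.7e-09). Btn1a1, Tspan8, Car12 and Vsig2, genes of membrane proteins, fell too, with log2 differences of -1.46, -1.35, -1.11 and -1.11, and for Tspan8 the mean over its probe sets gave -0.76. Glipr1 had a log2 difference of -1.19 ± 0.12 on its brightest probe set and 0.08 ± 0.13 on another, so its probe sets disagree. The remaining large falls, in Sox17, Ankrd1, Epcam, Lhx8 and Cnn1, are described with their groups.

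Called members of 45 gene lists, grouped by cell type or pathway, were counted against the shares over all genes. These shares, 5.95% higher and 7.27% lower, stand beside every neuron list count below. Lists with more than 40% of tested members higher in -/- neurons were those for the midbrain dopaminergic lineage, fibroblasts and mesenchyme, the Hedgehog pathway, and Y-linked genes with Xist. Lists with more than 40% lower were those for epithelium, cell cycle, endoderm, interferon response, GABAergic neurons, and the small HMGN and linker histone lists. The HMGN list had 3 tested members and 2 falls, and the targeted gene Hmgn1 is itself among the falls.

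**Figure D2:**
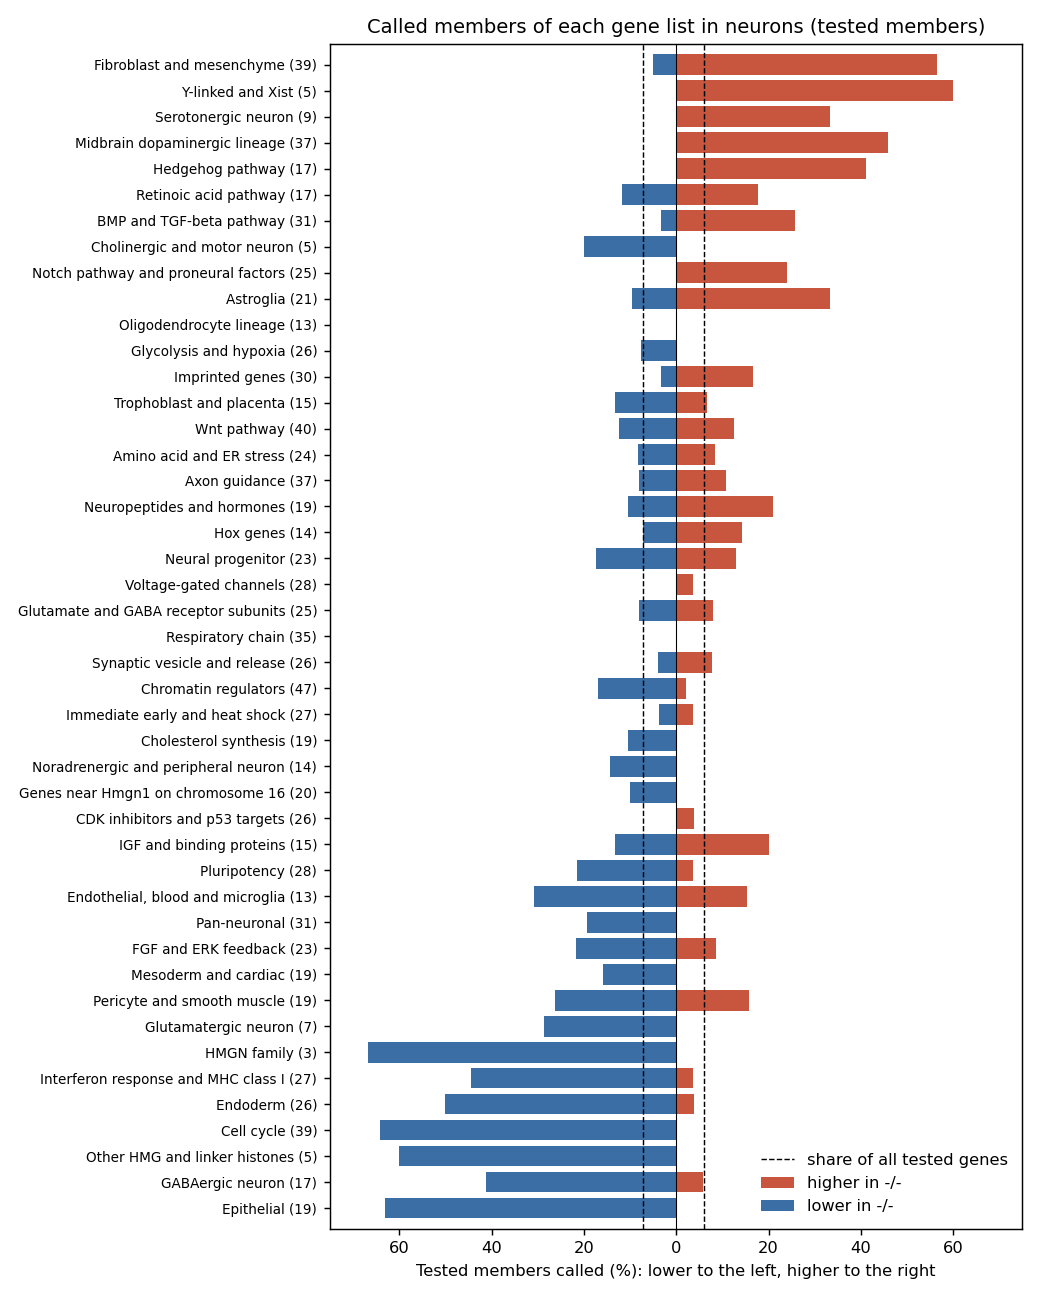
Share of the tested members of each gene list that rose (red, to the right) or fell (blue, to the left) in -/- neurons, in percent, ordered by the list's median difference and with the number of tested members in brackets. The dashed lines mark 5.95% and 7.27%, the shares of all tested genes that rose and fell, and the dopaminergic, fibroblast and Hedgehog bars reach far to the right of them while the epithelial, cell cycle, endoderm and interferon bars reach far to the left.

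Of the 45 genes listed for the midbrain dopaminergic lineage, 37 were tested, 17 rose and none fell, and their median difference was 0.36. Of the rest, 5 were too dim (Lmx1a, Ferd3l, Drd2, Chrna6 and Chrnb3) and the others were not analysed here. At an unadjusted p under 0.05 in limma 22 were higher and 1 was lower, against 3817 of all 14432 genes in either direction. The -/- arrays lay wholly above the +/+ arrays for 21 members, against 13.1% of all genes. They lay wholly below for 2 members, Otx2 and Gfra1, against 18.4% of all genes. Between 15 and 19 members rose when any 1 neuron array was left out.

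Among the patterning signals, Shh, the secreted ventral signal Sonic hedgehog, read 1247, 1053 and 1324 on the +/+ arrays and 2182, 2374 and 2320.5 on the -/- arrays (1.9-fold, log2 difference 0.93 ± 0.13, adjusted p = 0.00014). Corin, a serine protease that marks the midbrain floor plate, read 219, 223 and 268 on the +/+ arrays and 847, 637 and 686 on the -/- arrays (3.04-fold, log2 difference 1.60 ± 0.17, adjusted p = 8.7e-06). Wnt5a, a non-canonical Wnt ligand, read 762, 697 and 805 on the +/+ arrays and 1071, 1112 and 1042 on the -/- arrays (log2 difference 0.51 ± 0.14, adjusted p = 0.019). All 3 rose with no overlap between genotypes, though the call for Wnt5a was lost without +/+ or -/- replicate 2. Fgf8 and Wnt1, signals of the midbrain-hindbrain boundary, lay near or under the background bound, with log2 differences of 0.20 ± 0.11 and 0.03 ± 0.08.

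Of the floor plate and progenitor factors, Foxa1 read 539, 488 and 528 on the +/+ arrays and 1459, 1443 and 1424 on the -/- arrays (2.78-fold, log2 difference 1.47 ± 0.14, adjusted p = 4.1e-06). This forkhead factor acts with its paralogue Foxa2 in the floor plate. Foxa2 itself read 513, 494 and 517 on the +/+ arrays and 659, 594 and 596 on the -/- arrays, again without overlap, but it missed the threshold in the fit of all 18 arrays (log2 difference 0.28 ± 0.24, adjusted p = 0.52), and in the fit of the 6 neuron arrays alone the same difference had an adjusted p of 0.034. Lmx1b, a LIM homeobox factor of both dopamine and serotonin neurons, read 38.3, 41.0 and 48.7 on the +/+ arrays and 72.2, 61.6 and 67.3 on the -/- arrays (log2 difference 0.64 ± 0.11, adjusted p = 0.00063). Msx1, a homeobox factor downstream of Lmx1a, read 125, 101 and 109.9 on the +/+ arrays and 176, 161 and 163 on the -/- arrays (log2 difference 0.57 ± 0.07, adjusted p = 3.3e-05). Thus 3 of 7 tested members of this role rose. Neurog2, the proneural factor, and Otx2, which sets the caudal limit of the midbrain, did not pass, with log2 differences of -0.02 ± 0.11 and -0.12 ± 0.06, nor did the homeobox gene Msx2 (-0.16 ± 0.13).

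The midbrain identity factors were split. En2, an engrailed homeobox factor, read 372, 392 and 419 on the +/+ arrays and 557, 659 and 575 on the -/- arrays (log2 difference 0.59 ± 0.11, adjusted p = 0.0011), and the zinc finger gene Bnc2 read 78.3, 53.1 and 72.3 on the +/+ arrays and 119.8, 109 and 101 on the -/- arrays (log2 difference 0.70 ± 0.12, adjusted p = 0.00078). For Bnc2 the mean over probe sets gave 0.42. En1, the paralogue of En2, passed the test (adjusted p = 0.0073) but lay under the background bound on all 6 arrays, so no fold is given. Nr4a2 (Nurr1), the nuclear receptor required for dopamine neurons, read 513, 444 and 491 on the +/+ arrays and 710.1, 682 and 731 on the -/- arrays. The genotypes did not overlap, but the difference of 0.55 ± 0.25 missed the threshold in the fit of all 18 arrays (adjusted p = 0.17) and passed in the fit of 6 neuron arrays (0.0027) and without ES cell +/+ replicate 3 (0.032). Pitx3, the homeobox factor specific to midbrain dopamine neurons, stayed near the bound, at 31.3, 36.4 and 33.8 on the +/+ arrays and 36.0, 39.6 and 34.8 on the -/- arrays, with overlapping genotypes. The factor genes Sox6 and Pax5 did not pass either (0.09 ± 0.11 and -0.03 ± 0.09).

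**Figure D3:**
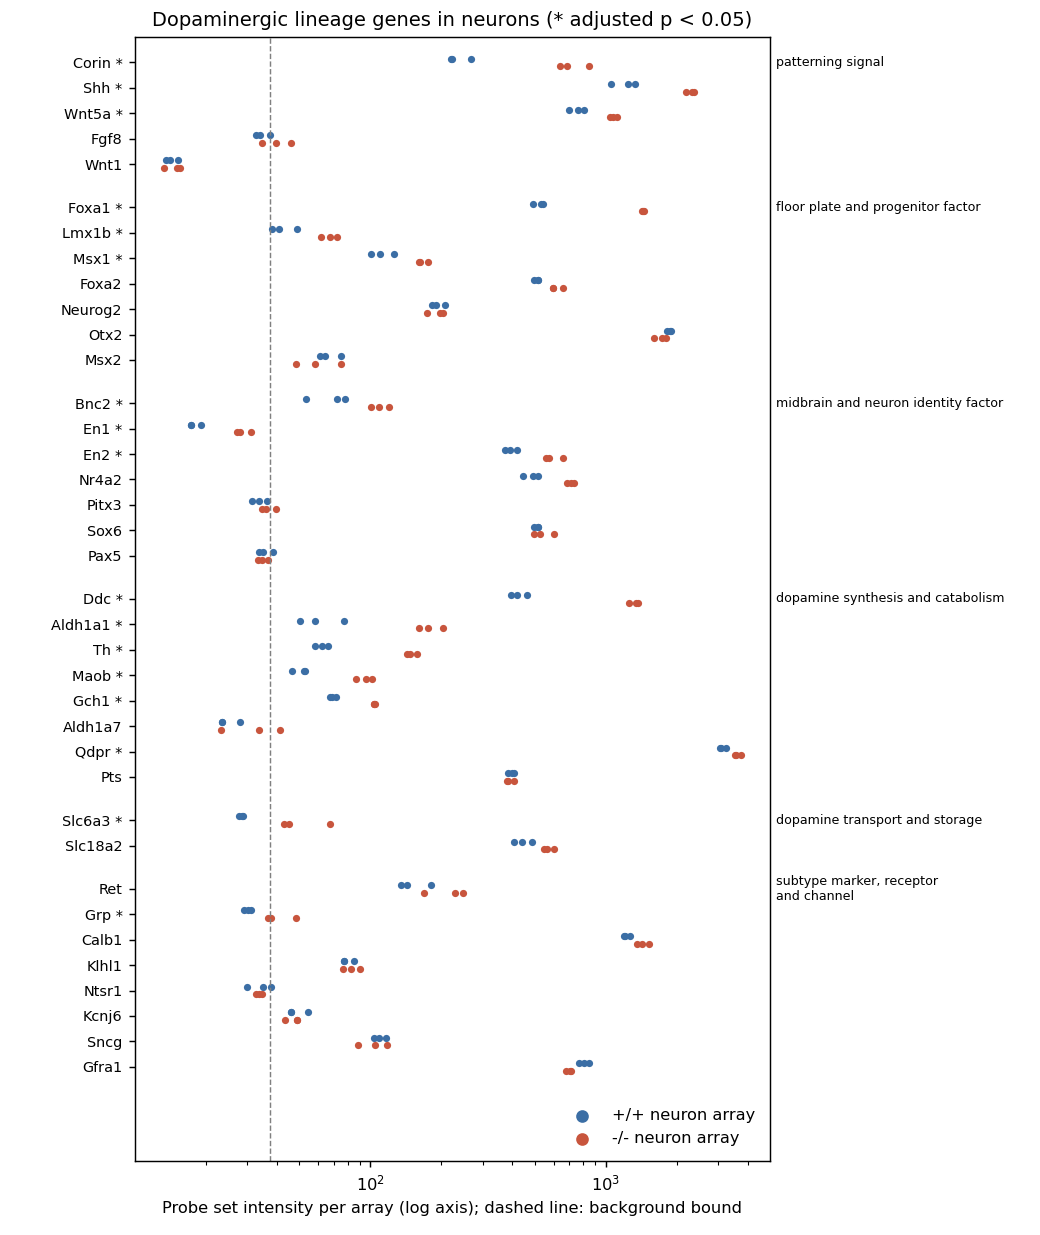
Probe set intensity (horizontal log axis) of the 37 tested dopaminergic lineage genes on each of the 3 +/+ (blue) and 3 -/- (red) neuron arrays, grouped by role, with an asterisk for an adjusted p under 0.05 and a dashed line at the background bound of 37.5. The synthesis genes Ddc, Aldh1a1, Th, Maob and Gch1 show gaps between the colours, whereas Pitx3, En1, Wnt1 and Slc6a3 lie near or left of the bound in at least 1 genotype.

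Genes of dopamine synthesis and breakdown moved most, with 6 of 8 tested members higher and a median of 0.74. Th, tyrosine hydroxylase, the rate-limiting enzyme of catecholamine synthesis, read 62.3, 66.4 and 58.4 on the +/+ arrays and 148, 144 and 158 on the -/- arrays (2.38-fold, log2 difference 1.25 ± 0.17, adjusted p = 0.00011). Ddc, the decarboxylase that turns L-DOPA into dopamine and 5-hydroxytryptophan into serotonin, read 463, 396 and 419 on the +/+ arrays and 1253, 1369 and 1338 on the -/- arrays (3.1-fold, log2 difference 1.63 ± 0.07, adjusted p = 1.3e-09). Both were separated by genotype with wide gaps, and the +/+ arrays of Th lay not far above the background bound. Aldh1a1, a retinaldehyde dehydrogenase that marks a subset of dopamine neurons, read 77.0, 50.4 and 58.0 on the +/+ arrays and 161, 176 and 204 on the -/- arrays (log2 difference 1.55 ± 0.12, adjusted p = 5.1e-07). Gch1, which makes the first precursor of the hydroxylase cofactor tetrahydrobiopterin, read 67.1, 68.5 and 71.7 on the +/+ arrays and 105, 104 and 103 on the -/- arrays (log2 difference 0.59 ± 0.08, adjusted p = 8.5e-05), and the mean of its probe sets gave 0.93. The genotypes did not overlap for either gene. Qdpr, which regenerates that cofactor, read 3062, 3080.3 and 3243 on the +/+ arrays and 3584, 3740.5 and 3545 on the -/- arrays (log2 difference 0.21 ± 0.05, adjusted p = 0.0047), a small rise that was not called from the 6 neuron arrays alone. Monoamine oxidase B (Maob), a dopamine-degrading enzyme, read 46.5, 52.6 and 52.5 on the +/+ arrays and 95.6, 87.2 and 101 on the -/- arrays (log2 difference 0.89 ± 0.10, adjusted p = 1.1e-05). Pts, the middle enzyme of the cofactor pathway, gave overlapping arrays (-0.02 ± 0.06), as did Aldh1a7 (0.35 ± 0.14).

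Transport and receptor genes moved less. Slc6a3, the dopamine transporter, lay under the bound in +/+ neurons and read 28.9, 28.5 and 27.6 on the +/+ arrays and 43.1, 67.5 and 45.1 on the -/- arrays (at least 1.36-fold, log2 difference 0.82 ± 0.13, adjusted p = 0.00035). Slc18a2, the vesicular monoamine transporter, read 442, 485 and 406 on the +/+ arrays and 601, 561 and 545 on the -/- arrays, without overlap but short of the threshold (log2 difference 0.36 ± 0.14, adjusted p = 0.1). It passed when the 6 neuron arrays were fitted alone (0.030). Of the 8 tested subtype markers, receptors and channels only Grp, a neuropeptide gene, rose, from under the bound (at least 1.09-fold, log2 difference 0.42 ± 0.12, adjusted p = 0.025), and its call was lost without +/+ replicate 1 or 2 or -/- replicate 3. Ret, the receptor tyrosine kinase for the glial cell line-derived neurotrophic factor family, had overlapping arrays and a difference of 0.49 ± 0.16 (adjusted p = 0.053), with the lowest -/- value on replicate 1. Without that array the adjusted p was 0.013, and over all alternatives it ranged from 0.013 to 0.22. The calcium-binding protein gene Calb1 (0.23 ± 0.08), the potassium channel gene Kcnj6 (-0.05 ± 0.10), the neurotensin receptor gene Ntsr1 (-0.01 ± 0.09), Klhl1 (0.06 ± 0.08), Sncg (-0.09 ± 0.12) and Gfra1 (-0.21 ± 0.17) did not pass.

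Because these genes rose together, their promoters were searched for sites of 2 kinds of factor named above. RefSeq windows of 300 bases around the start (GRCm38.p6) were given for 29 of the 37 tested genes, 42 windows in all. In this and the later searches a member counts if any of its windows held the site. The shares over all windows are counted per window, so the 2 are not the same measure. The NR4A monomer site AAAGGTCA, searched on both strands, occurs in 1.51% of all 32851 windows, and 1 of the 12 risen members with a window held it, Ddc, as did 1 of the 17 other tested members, Sox6. The forkhead core TGTTTAC occurs in 3.65% of all windows, and was held by 1 of the same 12, Foxa1, and by none of the 17 others. The 250 bases before each start are shown, 5′ to 3′ on the gene's strand, with the match in capitals, which in both is the reverse complement of the motif as spelled.
Ddc (chr11:11898145-11898394, minus strand): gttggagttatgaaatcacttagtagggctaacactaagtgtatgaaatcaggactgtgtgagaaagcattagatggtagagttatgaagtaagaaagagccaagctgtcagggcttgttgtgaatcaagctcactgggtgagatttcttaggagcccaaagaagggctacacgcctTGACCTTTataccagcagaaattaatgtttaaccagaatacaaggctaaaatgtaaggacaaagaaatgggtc
Foxa1 (chr12:57546112-57546361, minus strand): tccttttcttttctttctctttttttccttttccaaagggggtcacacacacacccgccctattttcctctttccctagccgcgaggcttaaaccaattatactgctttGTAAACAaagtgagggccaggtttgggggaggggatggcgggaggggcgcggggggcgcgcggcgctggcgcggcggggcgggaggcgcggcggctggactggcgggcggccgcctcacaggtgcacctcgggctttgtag
The match ends 65 bases before the Ddc start and 134 bases before the Foxa1 start.

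Genes of serotonin neurons rose as well, 3 of 9 tested, with a median of 0.38. None fell in limma, also at an unadjusted p under 0.05, where 6 were higher. Tph2, tryptophan hydroxylase 2, the rate-limiting enzyme of brain serotonin synthesis, read 32.3, 28.2 and 40.1 on the +/+ arrays and 125, 104 and 107 on the -/- arrays, with +/+ replicates 1 and 2 under the background bound (log2 difference 1.72 ± 0.12, adjusted p = 1.4e-07). Slc6a4, the serotonin transporter, read 52.1, 53.6 and 62.2 on the +/+ arrays and 166, 156 and 154 on the -/- arrays (2.81-fold, log2 difference 1.49 ± 0.11, adjusted p = 1.5e-07), and Maoa, monoamine oxidase A, read 499, 433 and 532 on the +/+ arrays and 661, 619.6 and 698 on the -/- arrays (log2 difference 0.44 ± 0.07, adjusted p = 0.00064). None of the 3 overlapped between genotypes. The hindbrain factor genes Gata3 and Nkx2-2 did not pass (0.44 and 0.38), nor did the receptor genes Htr1a (0.01) and Htr1b (0.04), and 5 members rose in the fit of the 6 neuron arrays.

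In contrast, 7 of 17 tested GABAergic neuron genes fell and 1 rose, with a median of -0.36 and 15 of 17 below 0. In progenitors 7 of the 17 fell and none rose in limma, against 9.19% and 7.81% of all genes. Lhx8, a LIM homeobox factor of the ventral forebrain, read 489, 457 and 441 on the +/+ arrays and 227, 230.3 and 192 on the -/- arrays (log2 difference -1.09 ± 0.11, adjusted p = 3.8e-06). Sp8, a zinc finger factor of interneuron progenitors, read 508, 540.0 and 495 on the +/+ arrays and 239, 268 and 258 on the -/- arrays (log2 difference -1.01 ± 0.06, adjusted p = 1.7e-08). Lhx6, which specifies cortical interneurons from the medial ganglionic eminence, read 88.1, 91.2 and 81.4 on the +/+ arrays and 58.8, 60.2 and 60.5 on the -/- arrays (log2 difference -0.53 ± 0.07, adjusted p = 0.00013), so that for all 3 factors every -/- array was below every +/+ array. Npy, a peptide of interneurons, fell by 0.65 and the homeobox gene Dlx6 by 0.41 (adjusted p = 0.005 and 0.037), the latter lost under several alternatives. The GABA-synthesising enzymes Gad1 and Gad2 did not pass, with differences of -0.11 and -0.18. Pvalb, the calcium-binding protein parvalbumin, was the exception and read 95.2, 96.7 and 94.6 on the +/+ arrays and 173, 190.3 and 163 on the -/- arrays (log2 difference 0.87 ± 0.11, adjusted p = 8.1e-05).

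Of 31 tested genes shared by most neurons 6 fell, against 7.27% of all genes, and none rose in limma. The median was -0.11, 25 of the 31 lay below 0, and at an unadjusted p under 0.05 8 were lower and 2 higher. Neurofilament genes led the falls, with Nefm at 516, 544 and 408 on the +/+ arrays and 279, 269 and 327 on the -/- arrays (log2 difference -0.74 ± 0.12, adjusted p = 0.0007) and Nefl at 2399.5, 2745 and 2211 on the +/+ arrays and 1656, 1512 and 1745 on the -/- arrays (log2 difference -0.58 ± 0.08, adjusted p = 0.00011). Both are subunits of the axonal intermediate filament, and both lie on chromosome 14. The related gene Ina fell by 0.30, Nefh by 0.29, the migration protein gene Dcx by 0.29 and the zinc finger gene Myt1 by 0.28. Without +/+ replicate 2 only 3 pan-neuronal genes fell, and without -/- replicate 2 only 2. Tubb3, Map2, Mapt, Syt1 and Snap25 did not pass, with differences from -0.21 to 0.09. Of 26 synaptic vesicle genes 2 rose and 1 fell, of 25 glutamate and GABA receptor subunit genes 2 rose and 2 fell, and of 28 voltage-gated channel genes 1 rose. The shares of these 3 lists lie near those over all genes.

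Single genes stood out within such lists. Sv2b, a synaptic vesicle glycoprotein, read 91.6, 88.6 and 99.0 on the +/+ arrays and 121, 156 and 197 on the -/- arrays (log2 difference 0.73 ± 0.13, adjusted p = 0.00095), and Cacna2d1, an auxiliary calcium channel subunit, read 513, 520.3 and 462 on the +/+ arrays and 769.7, 838 and 821 on the -/- arrays (log2 difference 0.70 ± 0.11, adjusted p = 0.00044). Unc13a, a vesicle-priming protein, fell by 0.51 and the metabotropic glutamate receptor gene Grm5 by 0.56, neither called from the 6 neuron arrays alone, and Unc13a lost its call when replicate 1 or replicate 2 of either genotype was left out. Among 19 neuropeptide genes 4 rose, 2 without +/+ replicate 1 or without -/- replicate 3, and 2 fell. Penk, the enkephalin precursor, read 302, 347 and 283 on the +/+ arrays and 851, 695 and 735 on the -/- arrays (log2 difference 1.29 ± 0.15, adjusted p = 3.2e-05), and the nociceptin precursor gene Pnoc read 701, 721 and 636 on the +/+ arrays and 329, 309.6 and 354 on the -/- arrays (log2 difference -1.05 ± 0.10, adjusted p = 3.2e-06). Their genotypes were fully separated in opposite directions. Cck, cholecystokinin, also rose (0.84 ± 0.11, adjusted p = 8.5e-05). Tbr1, a factor of cortical glutamatergic neurons, fell (-0.69 ± 0.11, adjusted p = 0.00037), as did Isl1, a motor and sensory neuron factor (-0.49 ± 0.13, adjusted p = 0.018), whose call was lost without +/+ replicate 1 or 2 or -/- replicate 1.

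Axon guidance genes included 4 that rose and 3 that fell of 37 (10.8% and 8.11%), against 5.95% and 7.27% of all genes. Ntn1, the secreted floor plate attractant netrin-1, read 1795, 1722 and 1569 on the +/+ arrays and 4090.5, 3698 and 3675 on the -/- arrays (2.25-fold, log2 difference 1.17 ± 0.06, adjusted p = 3.6e-09), and Slit2, a midline repellent, read 2059, 1849 and 2061 on the +/+ arrays and 3216, 3578 and 3409.9 on the -/- arrays (log2 difference 0.77 ± 0.09, adjusted p = 1.7e-05). Both are made by the floor plate in the embryo, and both were separated by genotype. Dcc, the netrin receptor, read 2154, 2133 and 1865 on the +/+ arrays and 1587, 1546 and 1637 on the -/- arrays (log2 difference -0.36 ± 0.07, adjusted p = 0.0023), but a second Dcc probe set near background gave 0.03. Efnb3, an ephrin of the midline, and Rgma, a repulsive guidance molecule, rose by 0.57 and 0.62.

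Signalling lists showed a change in the Hedgehog pathway, where 7 of 17 tested genes rose, none fell and the median was 0.23. At an unadjusted p under 0.05 in limma 8 were higher and 1 lower. Besides Shh, the Hedgehog-binding inhibitor gene Hhip read 111, 67.9 and 91.2 on the +/+ arrays and 216, 246 and 178 on the -/- arrays (log2 difference 1.25 ± 0.14, adjusted p = 1.3e-05) and the receptor gene Ptch1 read 2665, 2398 and 2550.4 on the +/+ arrays and 3308, 3570.4 and 3469 on the -/- arrays (log2 difference 0.44 ± 0.06, adjusted p = 6.5e-05). Both are textbook transcriptional targets of the pathway, as is the transcription factor gene Gli1, which read 50.8, 42.0 and 43.0 on the +/+ arrays and 64.8, 65.7 and 67.2 on the -/- arrays (log2 difference 0.54 ± 0.09, adjusted p = 0.00061). Nkx6-1, a ventral homeobox factor induced by Hedgehog, rose by 0.88 ± 0.11 and the co-receptor gene Cdon by 0.39 ± 0.10 (adjusted p = 4.7e-05 and 0.014). The mean over probe sets gave 0.26 for Ptch1 and 0.21 for Cdon, and Cdon was not called from the 6 neuron arrays alone or without +/+ replicate 2, -/- replicate 2 or -/- replicate 3. Gli3, the repressor form's gene, and Gas1, which Hedgehog signalling represses, did not pass at -0.30 and -0.20. The ventral factor genes Foxa2 and Nkx2-2, which other lists share, did not pass.

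Of 31 BMP and TGF-beta genes 8 rose and 1 fell. The Id genes encode inhibitors of basic helix-loop-helix factors and respond to BMP, and Id1 read 1708, 1550.4 and 1738 on the +/+ arrays and 2772, 2699 and 3049 on the -/- arrays (log2 difference 0.77 ± 0.08, adjusted p = 4.3e-06), while Id3 read 2339, 2029 and 2258 on the +/+ arrays and 3185, 3208 and 3555 on the -/- arrays (log2 difference 0.59 ± 0.08, adjusted p = 9.9e-05). Follistatin (Fst), which binds activins, moved the other way and read 538, 561 and 521 on the +/+ arrays and 289, 259 and 302 on the -/- arrays (log2 difference -0.93 ± 0.06, adjusted p = 6.9e-08). Without -/- replicate 1 the list had 5 rises. The Notch and proneural list had 6 rises of 25, 3 of them Id genes, and no fall in limma (1 at an unadjusted p under 0.05), with the effector gene Hey1 at 0.61 ± 0.10 and the ligand gene Jag1 at 0.55 ± 0.06 (adjusted p = 0.00072 and 1.4e-05). For Jag1 the mean over probe sets gave 0.33. The direct Notch readouts Hes1 and Hes5 did not pass (0.04 and -0.01). Of 40 Wnt genes 5 rose and 5 fell, against 5.95% and 7.27% of all genes, and 1 fell without +/+ replicate 3. The secreted inhibitor genes Wif1 (1.09 ± 0.18) and Frzb (-0.64 ± 0.09) led the Wnt list. FGF and ERK feedback genes had 5 falls and 2 rises of 23. Fgf15, a growth factor gene of the dorsal midbrain, read 412, 411 and 344 on the +/+ arrays and 214, 231 and 225 on the -/- arrays (log2 difference -0.79 ± 0.09, adjusted p = 1.7e-05) and the phosphatase gene Dusp4 fell by 0.47, but the list had 2 falls in the fit of the 6 neuron arrays, and 2 without +/+ replicate 1 or 3. In retinoic acid metabolism, Aldh1a2, which makes retinoic acid, rose by 1.08 ± 0.12, and Cyp26a1, which degrades it, and the binding protein gene Crabp1 fell by 0.70 and 0.73.

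Astroglial genes were mixed, with 7 of 21 higher and 2 lower. Agt, angiotensinogen, which astrocytes secrete, read 118, 119.6 and 129 on the +/+ arrays and 275, 306 and 271 on the -/- arrays (log2 difference 1.21 ± 0.13, adjusted p = 8.3e-06), and Sparcl1, a secreted synapse-promoting protein, read 4106, 4319 and 4529 on the +/+ arrays and 6952, 7156 and 7049 on the -/- arrays (log2 difference 0.71 ± 0.08, adjusted p = 1.8e-05). Fgfr3 rose by 0.52 ± 0.07, and by 0.33 as the mean over its probe sets. The glutamate transporter gene Slc1a2 instead fell (-0.43 ± 0.09) on its bright probe set and gave 0.01 on a dimmer one. Of the 5 astroglial marker genes, Aqp4, the water channel aquaporin-4, rose (log2 difference 0.30 ± 0.09, adjusted p = 0.042), and Gfap, Aldh1l1, Slc1a3 and S100b did not pass (-0.18, -0.06, -0.03 and 0.26). Of 13 oligodendrocyte lineage genes none was called in limma, and 3 were higher at an unadjusted p under 0.05. Olig1 and Olig2, which specify that lineage, differed by -0.03 ± 0.14 and 0.03 ± 0.11. In the neural progenitor list 3 of 23 rose and 4 fell, against 5.95% and 7.27% of all genes. Prom1, the membrane protein prominin-1, read 2547, 2320.0 and 2472 on the +/+ arrays and 5316, 5763 and 5438 on the -/- arrays (2.25-fold, log2 difference 1.17 ± 0.06, adjusted p = 4.0e-09), and the paired-box gene Pax3 rose by 0.47 ± 0.11, while Zic2 fell by 0.46. For Pax3 the mean over probe sets gave 0.26. Only 1 progenitor gene fell without +/+ replicate 1, without +/+ replicate 3 or without -/- replicate 2.

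The fibroblast and mesenchyme list held the most rises, 22 of 39 tested genes, with 2 falls and a median of 0.45. Collagen VI alpha 3 (Col6a3) read 473, 436 and 518 on the +/+ arrays and 1014, 1133 and 1042 on the -/- arrays (2.24-fold, log2 difference 1.16 ± 0.09, adjusted p = 3.6e-07). Dcn, the matrix proteoglycan decorin, read 1710.5, 1472 and 1653 on the +/+ arrays and 3464, 3405 and 3513 on the -/- arrays (log2 difference 1.10 ± 0.14, adjusted p = 7.1e-05), and Tgfbi, a matrix protein induced by TGF-beta, read 174, 122 and 192 on the +/+ arrays and 402, 340.3 and 366 on the -/- arrays (log2 difference 1.20 ± 0.14, adjusted p = 2.1e-05). In each of the 3 the -/- arrays lay wholly above the +/+ arrays. Fap, the fibroblast activation protease, rose from under the bound (at least 1.64-fold, log2 difference 1.20 ± 0.12, adjusted p = 4.4e-06). Lum, the proteoglycan lumican, and Postn, the matrix protein periostin, rose by 0.89 ± 0.19 and 0.85 ± 0.11 (adjusted p = 0.0056 and 6.0e-05). Col1a1, fibronectin (Fn1) and the mesenchymal receptor gene Pdgfra did not pass, at 0.42, 0.37 and -0.10. In progenitors 26 members rose and 2 fell, against 7.81% and 9.19% of all genes. The neuron difference was lower than the progenitor difference for 9 members and higher for 4, against 5.41% and 5.67% of all genes. The summed signal of the list was 45297 to 52117 on the +/+ arrays and 61591 to 70308 on the -/- arrays. These rises stand beside those of the dopaminergic list on the same arrays, and their part in them was not tested.

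In the pericyte and smooth muscle list, which holds contractile genes beside pericyte receptor and channel genes, 5 of 19 tested fell and 3 rose, with a median of -0.18. The 5 that fell, Acta2, Tagln, Cnn1, Cnn2 and Myl9, encode actin, actin-binding or myosin light chain proteins, and the 3 that rose were Pdgfrb, Abcc9 and Kcnj8. Acta2, smooth muscle alpha-actin, read 6186, 4308 and 7830.2 on the +/+ arrays and 3646, 2924 and 2634 on the -/- arrays (log2 difference -0.96 ± 0.17, adjusted p = 0.0012), and Myl9, a myosin regulatory light chain, read 1169, 887 and 1333 on the +/+ arrays and 686, 540.4 and 583 on the -/- arrays (log2 difference -0.89 ± 0.11, adjusted p = 5.5e-05). The genotypes did not overlap for either, but the +/+ arrays were widely spread. Tagln, the actin-binding protein transgelin, read 1691, 973 and 2207 on the +/+ arrays and 973, 787 and 666 on the -/- arrays, where -/- replicate 1 and +/+ replicate 2 overlapped (log2 difference -0.94 ± 0.20, adjusted p = 0.0048), and it was not called from the 6 neuron arrays. Calponin (Cnn1) read 66.0, 40.3 and 87.9 on the +/+ arrays and 31.8, 29.0 and 25.1 on the -/- arrays, with all -/- arrays under the bound (at least 1.62-fold lower, log2 difference -1.09 ± 0.18, adjusted p = 0.00076). Pdgfrb, the platelet-derived growth factor receptor of pericytes, rose (log2 difference 0.70 ± 0.12, adjusted p = 0.0008), and Kcnj8, the potassium channel pore that pairs with the product of Abcc9, was higher, at least 1.47-fold (log2 difference 0.74 ± 0.13, adjusted p = 0.0015). Without +/+ replicate 2, whose summed signal for the list was the lowest of that genotype, 8 members fell, and with the 6 neuron arrays alone 3 fell.

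In progenitors 12 of the 19 members rose, against 7.81% of all genes. They include 4 of the 5 that fell in neurons, Tagln, Cnn1, Cnn2 and Myl9, while Acta2 did not pass there (0.52 ± 0.17, adjusted p = 0.051). Pdgfrb and Abcc9 rose at both stages, and for 11 of the 19 the neuron difference was lower than the progenitor difference, against 5.41% of all genes (adjusted p under 0.05 for the interaction in limma). Myl9 read 1615, 1582 and 1586 on the +/+ progenitor arrays and 2760.1, 2841 and 2743 on the -/- progenitor arrays, the opposite order from neurons, with an interaction of -1.69 ± 0.16 (adjusted p = 6.9e-06). The interaction was -1.85 ± 0.26 for Cnn1 and -1.62 ± 0.28 for Tagln (adjusted p = 0.00023 and 0.0015). The CArG box, the binding site of serum response factor at contractile genes, occurs in 1.63% of all promoter windows, and 2 of the 4 fallen members with a window held it, Cnn2 and Myl9. None of the 12 other tested members with a window did. The Myl9 promoter is shown as the example with the site in capitals, over the 250 bases before the start.
Myl9 (chr2:156775214-156775463, plus strand): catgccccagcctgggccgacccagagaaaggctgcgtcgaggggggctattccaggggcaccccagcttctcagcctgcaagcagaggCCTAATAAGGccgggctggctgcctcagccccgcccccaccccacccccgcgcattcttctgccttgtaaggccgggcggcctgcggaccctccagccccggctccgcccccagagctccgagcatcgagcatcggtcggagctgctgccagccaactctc
The site ends 151 bases before the start.

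**Figure D4:**
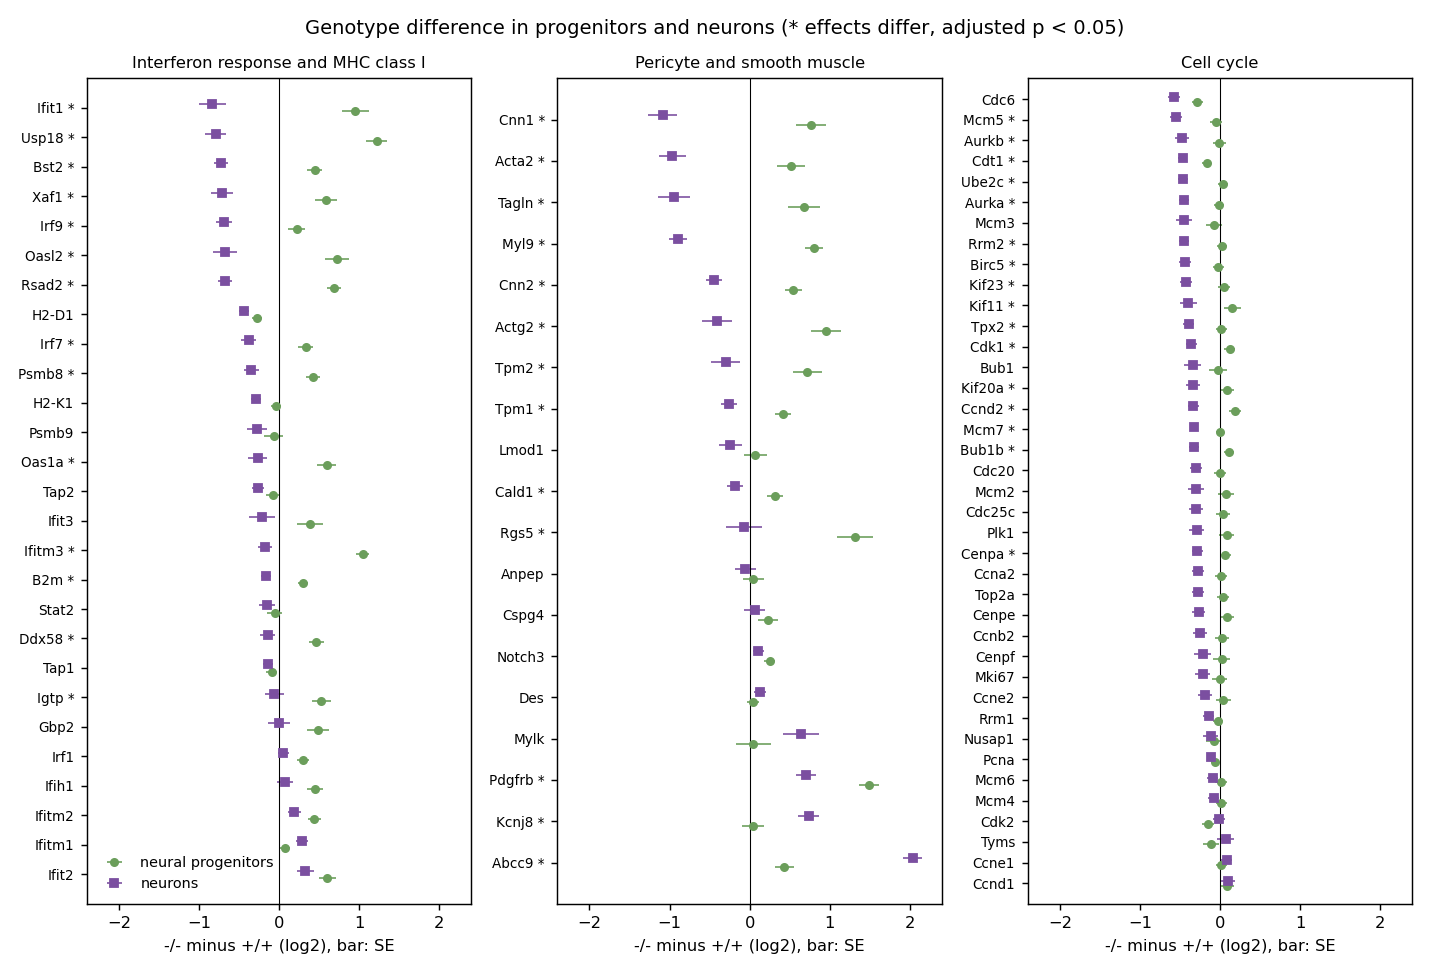
Log2 difference between -/- and +/+ (horizontal axis, with the standard error as a bar) in progenitors (green circles) and neurons (purple squares) for each tested member of 3 lists, with an asterisk where the difference between the cell types passed an adjusted p of 0.05. In the interferon and smooth muscle panels the circles lie mostly right of 0 and the squares left of it, and in the cell cycle panel the circles lie near 0 while most squares lie to its left.

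Interferon response and antigen presentation genes fell in 12 of 27 cases and rose in 1, with a median of -0.27. Usp18, a negative regulator of the type I interferon receptor, read 498, 459 and 416 on the +/+ arrays and 251, 259 and 280.4 on the -/- arrays (log2 difference -0.79 ± 0.13, adjusted p = 0.00072). Ifit1, an RNA-binding antiviral protein, read 186, 144 and 149.6 on the +/+ arrays and 93.3, 73.0 and 103 on the -/- arrays (log2 difference -0.83 ± 0.17, adjusted p = 0.0034), and Bst2, the virus-tethering protein tetherin, read 650.1, 542 and 626 on the +/+ arrays and 346, 373 and 375 on the -/- arrays (log2 difference -0.73 ± 0.09, adjusted p = 4.8e-05). Every -/- array was below every +/+ array for all 3. Irf9, the DNA-binding subunit of the factor that activates these genes, fell by 0.69, the apoptosis gene Xaf1 by 0.71 and the oligoadenylate synthetase-like gene Oasl2 by 0.68 (adjusted p = 0.00023, 0.0018 and 0.006). Stat2 and the interferon-inducible gene Gbp2 did not pass (-0.15 and -0.00).

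The same list was higher in -/- progenitors, where 18 of 27 rose and 1 fell, against 7.81% and 9.19% of all genes. Usp18 read 91.4, 93.9 and 113 on the +/+ progenitor arrays and 296, 198 and 210.3 on the -/- progenitor arrays, and its interaction was -2.01 ± 0.19 (adjusted p = 6.9e-06). In all, 14 members had a lower difference in neurons than in progenitors, against 5.41% of all genes. Interferon-stimulated response elements, searched as a pair of GAAA blocks with any 2 bases between them on either strand, occur in 3.44% of all windows. They were found for 13 of the 25 tested members with a window, 3 of the 10 that fell (Ifit1, Bst2 and Rsad2) and 10 of the other 15. Counted per window, the share was 44.8% for all tested members, 25% for those that fell and 58.8% for the others. The Ifit1 and Bst2 promoters are shown because these members fell most among those with an element, with the elements in capitals.
Ifit1 (chr19:34640639-34640888, plus strand): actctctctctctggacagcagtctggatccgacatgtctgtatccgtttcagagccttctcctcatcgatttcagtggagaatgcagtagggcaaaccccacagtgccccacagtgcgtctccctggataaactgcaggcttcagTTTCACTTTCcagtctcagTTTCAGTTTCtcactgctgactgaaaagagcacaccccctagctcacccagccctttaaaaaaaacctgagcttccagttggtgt
Bst2 (chr8:71537473-71537722, minus strand): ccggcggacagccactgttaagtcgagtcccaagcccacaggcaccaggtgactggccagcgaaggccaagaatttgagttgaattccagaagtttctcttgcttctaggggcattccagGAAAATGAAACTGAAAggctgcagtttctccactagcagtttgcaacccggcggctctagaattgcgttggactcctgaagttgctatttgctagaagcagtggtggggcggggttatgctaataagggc
Ifit1 holds 2 separate elements, in the reverse orientation, and Bst2 holds 2 overlapping ones in the forward orientation that form 1 capital run.

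Cell cycle genes fell in 25 of 39 cases, and 36 of 39 lay below 0, with a median of -0.30. None rose in limma, also at an unadjusted p under 0.05. Cdc6, which loads the replicative helicase at origins, read 78.4, 69.5 and 81.1 on the +/+ arrays and 48.9, 46.1 and 57.5 on the -/- arrays (log2 difference -0.58 ± 0.07, adjusted p = 5.2e-05). Mcm5, a subunit of that helicase, read 310.5, 296 and 368 on the +/+ arrays and 213, 212 and 239 on the -/- arrays (log2 difference -0.55 ± 0.07, adjusted p = 8.5e-05), and Cdt1, a second loading factor, read 589, 566 and 631 on the +/+ arrays and 413, 446 and 433 on the -/- arrays (log2 difference -0.47 ± 0.06, adjusted p = 3.3e-05). Each fell by less than 1.5-fold and without overlap. Among mitosis genes, the kinase gene Aurka fell by 0.46, Aurkb by 0.48 and the ubiquitin-conjugating enzyme gene Ube2c by 0.46 (adjusted p = 0.0001, 0.0012 and 0.00015). Mki67 and Pcna, common proliferation markers, did not pass (-0.22 and -0.12), nor did the G1 cyclin gene Ccnd1 (0.10). The count depended on the arrays, with 15 falls without +/+ replicate 3, 16 without -/- replicate 2, 32 without +/+ replicate 2 and 14 in the fit of the 6 neuron arrays. In progenitors 1 member fell, against 9.19% of all genes. The difference was lower in neurons than in progenitors for 16 members, against 5.41% of all genes. Of 26 CDK inhibitor and p53 target genes 1 rose, the stress gene Gadd45b, and none fell in limma (3 at an unadjusted p under 0.05).

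E2F sites, spelled TTTCCCGC, TTTCGCGC, TTTGCCGC or TTTGGCGC on either strand, occur in 2.26% of all windows. Of the 19 fallen members with a window 6 held one, as did 2 of the 11 other tested members. The promoters of the 2 members that fell most are shown, both of which held a site, in capitals.
Cdc6 (chr11:98907901-98908150, plus strand): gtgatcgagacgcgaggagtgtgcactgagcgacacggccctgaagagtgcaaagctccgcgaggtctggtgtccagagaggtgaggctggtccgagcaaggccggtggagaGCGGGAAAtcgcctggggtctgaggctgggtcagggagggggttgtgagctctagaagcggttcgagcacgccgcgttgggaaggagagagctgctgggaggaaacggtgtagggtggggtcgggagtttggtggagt
Mcm5 (chr8:75109259-75109508, plus strand): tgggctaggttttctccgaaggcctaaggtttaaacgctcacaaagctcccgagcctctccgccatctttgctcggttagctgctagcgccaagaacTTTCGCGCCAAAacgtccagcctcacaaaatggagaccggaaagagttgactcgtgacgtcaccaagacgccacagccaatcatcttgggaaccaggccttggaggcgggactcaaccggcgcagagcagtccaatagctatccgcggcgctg
In Mcm5 matches on both strands overlap and form 1 capital run.

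Endoderm and epithelial genes fell. In the endoderm list 13 of 26 fell and 1 rose, with a median of -0.29. In progenitors 14 of the 26 fell and 3 rose, against 9.19% and 7.81% of all genes. Sox17, an endoderm and endothelial transcription factor, read 889, 878 and 963 on the +/+ arrays and 346, 368 and 431 on the -/- arrays (2.39-fold lower, log2 difference -1.26 ± 0.12, adjusted p = 4.8e-06). Gata6, a zinc finger factor of extraembryonic endoderm, read 243, 238 and 234 on the +/+ arrays and 119, 118 and 135 on the -/- arrays (log2 difference -0.94 ± 0.15, adjusted p = 0.0004), and Lama1, the laminin chain of its basement membrane, read 1679.5, 1504 and 1465 on the +/+ arrays and 760.2, 693 and 814 on the -/- arrays (log2 difference -1.04 ± 0.10, adjusted p = 5.6e-06). All -/- arrays were below all +/+ arrays for these 3. Foxa1 was the exception, while the secreted endoderm products Afp and Ttr did not pass (0.10 and -0.25). The summed signal of 5 endoderm markers was 4284 to 7267 on the +/+ arrays and 3671 to 4507 on the -/- arrays, ranges that overlap.

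Of 19 epithelial genes 12 fell and 18 lay below 0, and none rose in limma, also at an unadjusted p under 0.05. Epcam, the epithelial adhesion molecule, read 436, 455 and 421 on the +/+ arrays and 183, 189 and 241 on the -/- arrays (log2 difference -1.10 ± 0.08, adjusted p = 3.2e-07), and the mean of its probe sets gave -0.58. Keratin 18 (Krt18) read 1072, 984 and 1051 on the +/+ arrays and 518, 492 and 484 on the -/- arrays (log2 difference -1.05 ± 0.06, adjusted p = 4.1e-09), with its partner Krt8 at -0.80 ± 0.07 (adjusted p = 1.3e-06). The desmosome gene Dsp and the tight junction gene Ocln fell by 0.99 and 0.74, and Krt7, a keratin of simple epithelia, by 0.91. E-cadherin (Cdh1) did not pass at -0.22. For Krt7 and Krt18 the difference was lower in neurons than in progenitors (-1.73 ± 0.14 and -1.15 ± 0.08, adjusted p = 2.2e-06 and 3.5e-07). In the endothelial, blood and microglia list 4 of 13 tested genes fell and 2 rose. The receptor tyrosine kinase genes Tek (-1.05 ± 0.10), Kdr (-0.77 ± 0.11) and Flt1 (-0.70 ± 0.14) and the adhesion molecule gene Esam (-0.34 ± 0.08) fell. Cd34, a surface sialomucin, and Sox18, an endothelial transcription factor, rose from under the bound (differences of 0.78 ± 0.17 and 0.47 ± 0.14), and 1 of the list rose without +/+ replicate 1 or 2 or without -/- replicate 2 or 3. Cdh5, the endothelial cadherin, did not pass (0.01). In the mesoderm and cardiac list 3 of 19 fell, led by Ankrd1, a stretch-responsive muscle protein, which read 95.0, 63.7 and 77.8 on the +/+ arrays and 41.4, 33.4 and 29.9 on the -/- arrays (log2 difference -1.15 ± 0.16, adjusted p = 0.00015). Of 28 pluripotency genes 11 were dim in both genotypes and 6 fell, among them Sall4 (-0.68 ± 0.07) and Dppa5a (-0.66 ± 0.07), while Tbx3 rose (0.85 ± 0.08). A second Tbx3 probe set near the background bound gave -0.00.

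Among the HMGN relatives, Hmgn5, an X-linked family member, read 977, 872 and 929.9 on the +/+ arrays and 760.1, 797 and 802 on the -/- arrays (log2 difference -0.23 ± 0.05, adjusted p = 0.0071), a fall not called from the 6 neuron arrays. Hmgn3 read 3237, 3207 and 3326 on the +/+ arrays and 3569.9, 3959.7 and 3648 on the -/- arrays, without overlap and short of the threshold (log2 difference 0.19 ± 0.26, adjusted p = 0.71), and it passed without ES cell +/+ replicate 3 (0.033). The probe set shared by Hmgn2 and 3 other symbols differed by 0.02 ± 0.06 (adjusted p = 0.90). H1f2, a linker histone, read 766, 653 and 805 on the +/+ arrays and 454, 472 and 456 on the -/- arrays (log2 difference -0.68 ± 0.08, adjusted p = 3.0e-05), though a dimmer probe set gave 0.14. The chromatin architectural genes Hmga2 and Hmgb2 fell by 0.49 and 0.31 (adjusted p = 0.0013 and 0.011), the latter not called from the 6 neuron arrays or without +/+ replicate 1 or -/- replicate 3. Of 47 chromatin regulators 8 fell and 1 rose, with the de novo DNA methyltransferase gene Dnmt3b at -0.48 ± 0.09, the maintenance methylation cofactor gene Uhrf1 at -0.39 ± 0.09 and the deacetylase gene Hdac9 at 0.50 ± 0.10. That count fell to 3 in the fit of the 6 neuron arrays and to 5 without +/+ replicate 1 or -/- replicate 2.

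Imprinted genes had 5 rises and 1 fall of 30, against 5.95% and 7.27% of all genes. Igf2, the fetal growth factor, read 4166, 3823 and 4183 on the +/+ arrays and 6682, 6086 and 6184 on the -/- arrays (log2 difference 0.64 ± 0.07, adjusted p = 2.5e-05), and Nnat, neuronatin, read 10833, 11187 and 9103 on the +/+ arrays and 6221, 5023 and 6628 on the -/- arrays (log2 difference -0.80 ± 0.10, adjusted p = 5.0e-05), in opposite directions without overlap. Igfbp1, a binding protein of insulin-like growth factors, fell (-0.84 ± 0.17, adjusted p = 0.0029). The Y-linked genes Eif2s3y, Kdm5d and Uty rose by 0.42, 0.49 and 0.66, and in ES cells they differed by 0.70 ± 0.06, 0.72 ± 0.06 and 0.61 ± 0.09. Of 14 tested Hox genes 2 rose and 1 fell, against the same shares of all genes, the fall being Hoxc4 (-0.91 ± 0.11). Few energy metabolism genes were called, with none of 35 respiratory chain genes called in limma (5 were lower at an unadjusted p under 0.05) and 2 of 26 glycolysis and hypoxia genes lower. Among stress genes the small heat shock protein gene Hspb8 rose (0.91 ± 0.08) and the phosphatase gene Dusp1 fell (-0.48 ± 0.06).

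By position, chromosome 14 carried more falls than any other chromosome, 109 of 490 tested genes (22.2%), with a median of -0.12. Chromosome 12 followed at 12.9%, and the other autosomes and X ranged from 4.77% to 7.93%. Nefl, Nefm, Pnoc, Irf9 and Zic2 are among the chromosome 14 genes named here, and Gjb6, Gch1 and Wnt5a on the same chromosome rose. Of 20 tested genes around Hmgn1 on chromosome 16, only Hmgn1 and its neighbour Brwd1 fell, Brwd1 by 0.21 with a call that most alternatives lost.

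The neuron differences overlapped in part with those of the progenitor stage, measured on other arrays. Of the 858 genes that rose in neurons 270 also rose in progenitors, which is 31.5% of the neuron rises and 24.0% of the progenitor rises, and 64 fell there. Of the 1049 falls 329 were shared, 31.4% and 24.8%, and 71 rose there. Over all genes 7.81% rose and 9.19% fell in progenitors. Across all genes, Pearson's r between the neuron and progenitor differences was 0.36, and with ES cells, where 10.5% of genes rose and 4.32% fell, it was 0.04, values that only describe these arrays, because genes do not vary independently. Neuron and progenitor differences themselves differed for 1599 genes (11.1%). Ddc shows a difference that was present in progenitors and larger in neurons, at 309.5, 287 and 281 on the +/+ progenitor arrays and 577, 576 and 530.1 on the -/- progenitor arrays in the former (interaction 0.69 ± 0.10, adjusted p = 0.00037). Th, Tph2 and Slc6a4 showed their main difference in neurons, with interactions of 1.21 ± 0.24, 1.24 ± 0.17 and 1.05 ± 0.15 (adjusted p = 0.004, 0.00021 and 0.00027). In progenitors Th differed by 0.04 ± 0.17, with adjusted p = 0.92. Shh, Foxa1, Aldh1a1 and Bnc2 had interactions that did not pass, which does not show equal differences at both stages (adjusted p = 0.22, 0.93, 0.63 and 0.97). Of the 37 tested members of the dopaminergic list, 13 rose and 2 fell in progenitors. Within that list as a whole, 9 members had a higher difference in neurons than in progenitors (5.67% of all genes) and 1 a lower one (5.41%). Against ES cells, 14 members had a higher difference in neurons (4.70% of all genes).

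**Figure D5:**
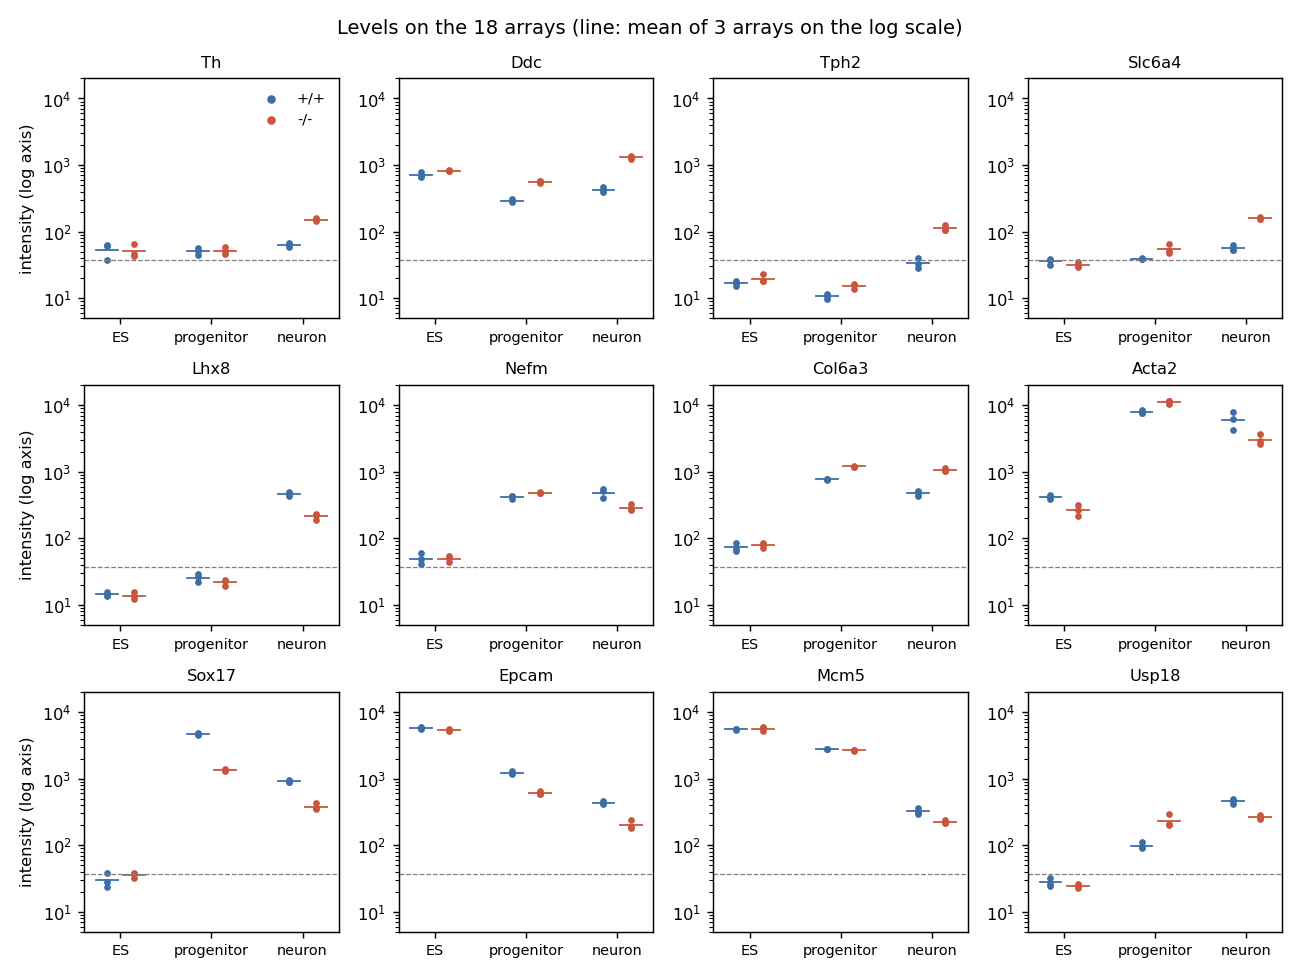
Probe set intensity (vertical log axis) on all 18 arrays for 12 genes, by cell type along the horizontal axis, with +/+ arrays in blue, -/- arrays in red, a line at each group's mean and a dashed line at the background bound. Th, Tph2 and Slc6a4 are highest in -/- neurons, Lhx8 is above it in neurons of both genotypes, and Acta2 and Usp18 change the order of the genotypes between progenitors and neurons.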

How the data were processed

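Linear intensities of all 18 arrays were taken from the deposited value table. Per the submitters' processing notes, the authors made these intensities with RMA and limma, without versions or settings. RMA corrects background and makes the arrays' distributions alike, so a change shared by most genes would not show. Values were put on a log2 scale here as log2(intensity + 1) from the deposited intensities. Probe sets at or above the 40th percentile of their own array on at least 3 arrays were kept, control probe sets were left out, and symbols were updated through gene identifiers to RefSeq GRCm38.p6. A model with 6 group means was fitted over all 18 arrays, without covariates, in limma 3.58.1 (R 4.3.3), leaving 12 residual degrees of freedom. Genotype differences in neurons and their interactions with the progenitor and ES cell differences were tested, and calls were made at a Benjamini-Hochberg adjusted p under 0.05 over all 14432 genes. The array count limits the precision. A group with all 3 arrays under the background bound is compared with that bound ("at least").

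Genes were named by a rule: the 15 largest rises and falls among called, non-overlapping genes above the bound, the 5 largest interactions each way, up to 6 called members per list, and all tested HMGN and dopaminergic members. Members that did not pass may be named with their value, and a few were chosen after their values were seen. Both the members and the lists were chosen with earlier results of these data known. Promoter windows and motifs were read from RefSeq tables. Alternatives varied the arrays fitted, normalization, pseudocount, filter, choice of probe set, array weights, variance model, replicate block and each neuron array in turn. The test was checked on simulated data.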

Additional observations from a re-analysis of the deposited data

Results flagged for a closer look

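Genotype differences that differed between cell types in the interaction test of the same limma fit, at an adjusted p under 0.05, are given here as the neuron difference minus that of the other cell type on the log2 scale. The arrays of each group number 3, too few for a test of single outlying arrays. Against progenitors the genes with the highest values were Agtr2 (2.20), the angiotensin II type 2 receptor gene, Gulo (1.68), Gjb6 (1.67), Car8 (1.62) and Abcc9 (1.61). In neurons themselves Car8 fell (-0.62 ± 0.13) and Gulo did not pass (-0.21 ± 0.07), while in progenitors they differed by -2.24 ± 0.13 and -1.90 ± 0.07, and Agtr2 differed by 0.85 ± 0.13 in neurons and -1.35 ± 0.13 in progenitors. The lowest were the prolactin family genes Prl7b1 (-2.50), Prl2a1 (-2.26) and Prl7d1 (-2.16), with Rtp4 (-2.44) and Ankrd1 (-2.19). In neurons themselves Prl7d1 did not pass (0.31, adjusted p = 0.17 in limma). Rtp4 fell there (-0.73), a call lost under most omissions of 1 neuron array. Of 15 tested trophoblast and placenta genes, 10 were dim in both neuron genotypes, and 8 rose in progenitors, against 7.81% of all genes.

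Among the lists, dopaminergic genes with a higher difference in neurons than in progenitors were Th (1.21), Corin (1.04) and Ddc (0.69), and serotonergic ones were Tph2 (1.24), Slc6a4 (1.05) and Maoa (0.40). The epithelial genes Krt7 (-1.73), Krt18 (-1.15) and Dsp (-0.79) had lower differences in neurons. So had the contractile genes Cnn1 (-1.85), Myl9 (-1.69) and Tagln (-1.62), the cell cycle genes Ube2c (-0.50), Mcm5 (-0.49) and Aurkb (-0.47), and the interferon response genes Usp18 (-2.01), Ifit1 (-1.78) and Oasl2 (-1.41).

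Against ES cells the oligodendrocyte lineage genes Olig1 (4.93) and Olig2 (4.58) had the highest values, followed by Abcc9 (2.10), Ntn1 (2.08) and Corin (1.96). In neurons themselves Olig1 and Olig2 differed by -0.03 and 0.03, and in ES cells by -4.96 ± 0.14 and -4.55 ± 0.11. The lowest were Tspan8 (-2.23), Spink1 (-1.93), the Y-linked gene Uba1y (-1.74), Hs3st1 (-1.71) and Ptger3 (-1.66).

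Probe sets without a single gene symbol were tested apart, and of these only the probe set that Hmgn2 shares is described above. In neurons 159 of 4579 tested were called (3.47%), 91 higher and 68 lower in -/- neurons. Of the probe sets with 1 symbol 9.33% were called.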

How the results depend on the processing

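None of the 202 called genes that the naming rule chose changed direction under any of 18 alternatives, and each alternative lost between 0 and 29 of their calls, with the 60th percentile filter giving a value for 177 of them. Direction could not change where only the spread was re-estimated, as with fewer cell types, trended variance, the replicate block or an omitted ES array. The other alternatives reused neuron arrays on which these genes had been called. Fitting the 6 neuron arrays alone gave 630 genes lower, of which 548 were among the 1049, with 5 serotonergic rises, 3 pericyte and smooth muscle and 14 cell cycle falls, 60 falls on chromosome 14, 1462 called probe sets with 1 symbol and 32 without. Progenitor and neuron arrays together gave 5 serotonergic rises. Quantile normalization gave 1041 genes with a lower difference in neurons than in ES cells, and array weights gave 1254 with a lower difference than in progenitors. Neuron replicates shared numbers across genotypes, but same-numbered arrays did not deviate together (r = -0.14, -0.09 and -0.08), and a replicate block gave 727 rises, 804 falls and 91 called probe sets without 1 symbol. Leaving out 1 neuron array, or ES cell +/+ replicate 3, gave 581 to 903 rises and 655 to 1125 falls, and interactions of 634 to 877 higher and 584 to 856 lower against progenitors and 545 to 654 higher and 1127 to 1603 lower against ES cells. The same omissions gave 2 to 6 pan-neuronal, 5 to 8 pericyte and smooth muscle and 15 to 32 cell cycle falls, 74 to 113 falls on chromosome 14, and 1553 to 2611 called probe sets with 1 symbol and 93 to 221 without. The causes were not tested. Signals under the background bound have no order.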
